A study of Mus musculus with 6 samples.

Results

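The 10 genes followed here mark the hepatic stellate cell of the liver and the myofibroblast it turns into: Lrat, Des, Reln, Cygb, Hhip and Colec11 for the quiescent cell, the receptors Pdgfra and Pdgfrb, and Acta2 and Tagln for the activated cell. They were chosen by symbol from 24421 genes in a table of read counts, and all 10 passed the filter on low counts that 12945 genes passed. Liver of 4-month-old C57BL/6 males gave 6 samples, 3 lacking Sesn3 (KO) and 3 wild type (WT), and the labels do not say whether each came from its own mouse. Every mouse, WT included, had been fed for 4 weeks on a high-fat diet with 40% of its energy from fat, 1.25% cholesterol and 0.5% of the bile salt sodium cholate, so the comparison is between genotypes on a diet of this kind. How the knockout was made, and in which cells, is not given in the sources used here. Sesn3 encodes sestrin 3, a stress-inducible regulator of mTORC1 and AMPK signalling.

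Stellate cells lie between the hepatocytes and the sinusoidal endothelium and store vitamin A as retinyl esters. In an injured liver they lose their lipid droplets, divide in response to platelet-derived growth factor, acquire contractile actin filaments and deposit collagen, and such activated cells are a main source of scar matrix. Acta2 and Tagln are also made by the smooth muscle of vessel walls, and Pdgfra and Pdgfrb by other fibroblasts and pericytes. In bulk liver RNA, fewer cells of a type and less RNA per cell cannot be told apart.

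The promoter of Acta2 is shown because Acta2 is the standard marker of the activated state, that of Lrat as the counterpart for the storage of vitamin A, and that of Pdgfra because it was the only one of the 10 genes called between genotypes. The sequences are the 250 bases before the annotated start (RefSeq, GRCm38.p6, read 5′ to 3′ on the gene's strand). Capitals mark a CArG box, the site of serum response factor in muscle genes, with up to 1 of its 6 central bases other than A or T. Lower case marks all other bases.
Acta2: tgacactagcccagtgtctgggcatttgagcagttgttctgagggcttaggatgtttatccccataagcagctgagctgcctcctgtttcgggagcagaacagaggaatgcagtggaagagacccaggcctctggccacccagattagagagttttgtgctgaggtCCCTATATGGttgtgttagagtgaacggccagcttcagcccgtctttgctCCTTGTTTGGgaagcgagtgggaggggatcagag
Lrat: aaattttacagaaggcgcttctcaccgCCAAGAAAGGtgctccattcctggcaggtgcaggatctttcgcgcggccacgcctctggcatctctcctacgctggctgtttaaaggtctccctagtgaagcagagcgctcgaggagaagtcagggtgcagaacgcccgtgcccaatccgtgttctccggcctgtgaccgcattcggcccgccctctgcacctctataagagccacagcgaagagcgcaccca
Pdgfra: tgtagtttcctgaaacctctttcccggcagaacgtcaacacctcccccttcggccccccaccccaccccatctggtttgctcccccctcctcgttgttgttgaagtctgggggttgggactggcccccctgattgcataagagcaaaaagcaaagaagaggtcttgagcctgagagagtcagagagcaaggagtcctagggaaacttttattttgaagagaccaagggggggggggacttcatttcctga
The Acta2 window is chr19:34255374-34255623 on the minus strand, the Lrat window chr3:82903975-82904224 on the minus strand and the Pdgfra window chr5:75152001-75152250 on the plus strand. Acta2 had 2 such matches, beginning 84 and 34 bases before the start, Lrat had 1, beginning 223 bases before it, and Pdgfra had none. The box reads the same class of letters on both strands, so 1 search covered both, and the matches did not overlap. Of 32851 promoters of this length 8.59% held at least 1 such match and 0.67% at least 2. With no mismatch allowed, 1.47% held a match and none of the 7 members in the table did. Des, Reln, Hhip and Colec11 held none with 1 mismatch allowed either. Cygb, Pdgfrb and Tagln have no entry in the table. A match describes letters and is not a measured binding site.

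Each library held between 18882220 and 24098512 counts. Sesn3 had 18, 18 and 16 counts in KO replicates 1 to 3 and 172, 200 and 195 in WT replicates 1 to 3, a 14.4-fold lower level (edgeR adjusted p = 0.00183). Of the 12945 genes tested, 6.94% were called at an adjusted p under 0.05, 435 higher and 463 lower in KO, and 33.5% had KO and WT samples that did not overlap. With no scaling factor beyond library size the split was 707 and 258, with a median shift over all genes of 0.21 on the log2 scale. Of 10 hepatocyte markers 9, from Hnf4a to Alb, were at 477 CPM or more in every sample, and Ass1 was counted at only 0.587 CPM in WT. The handling of multi-mapped reads is not given, so the value of Ass1 may not reflect its level. CPM is the count scaled to a common depth with TMM factors.

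Among the 10 genes only Pdgfra rose in KO, none fell, and the others did not pass the test (edgeR with Benjamini-Hochberg adjustment). That is 1 of 10 against 6.94% of all genes, or 3.36% called higher and 3.58% called lower. The fitted log2 fold change was positive in 9 of the 10, with a median of 0.62 against 0.0027 over all genes tested. The exception was Hhip. KO and WT samples did not overlap for 6 of the 10 genes, 5 with all KO samples above and 1 with all below, against 33.5% of all genes (16.9% above and 16.6% below). Unadjusted, 8 of the 10 had a p under 0.05, as had 25.8% of all genes. The sign of all 10 fold changes held under each alternative scaling, filter and test and in each fit without 1 sample.

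**Figure D1:**
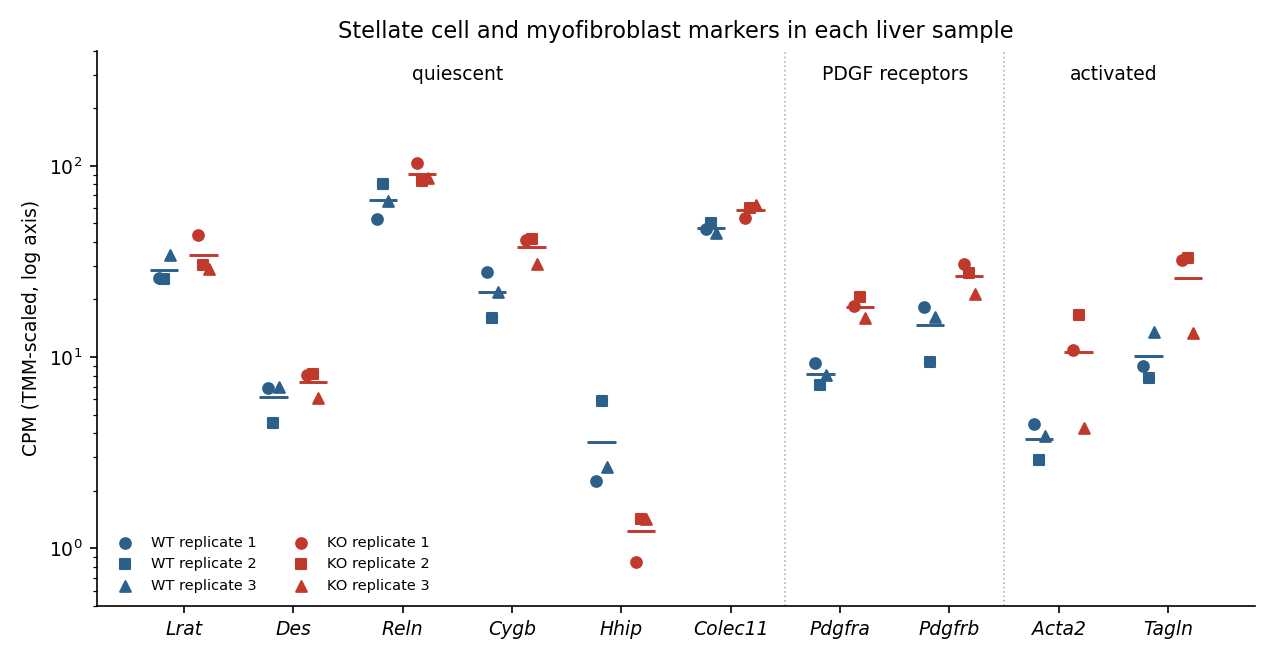
TMM-scaled CPM (vertical log axis) of the 10 marker genes in each of the 3 WT (blue) and 3 KO (red) liver samples. Symbols stand for replicates and horizontal bars for group means. KO samples lie above all WT samples for Reln, Cygb, Colec11, Pdgfra and Pdgfrb and below them for Hhip, while KO replicate 3 falls into the WT range for Acta2 and Tagln.

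Of the quiescent markers, Lrat and Des, the first an enzyme that esterifies retinol for storage and the second a muscle-type intermediate filament, had the smallest fold changes in this group. Lrat was at 43.7, 30.3 and 28.8 CPM in KO replicates 1 to 3 and at 25.9, 25.7 and 34.2 CPM in WT replicates 1 to 3. KO replicate 1 was the highest and WT replicate 3 came next, so the groups overlapped. The fitted ratio of KO to WT was 1.20 (approximate 95% interval 0.870 to 1.65, edgeR adjusted p = 0.450). Des was at 8.07, 8.10 and 6.07 CPM in KO and at 6.91, 4.53 and 7.0 CPM in WT. KO replicate 3 lay below WT replicates 1 and 3. The ratio of Des was 1.21 (interval 0.826 to 1.76, edgeR adjusted p = 0.510).

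Reln, Cygb and Colec11 had every KO sample above every WT sample without passing the adjusted test. Reln encodes reelin, a large secreted glycoprotein that stellate cells release in liver. It was at 103, 83.4 and 86.3 CPM in KO and at 52.7, 80.2 and 65.2 CPM in WT, and the gap between KO replicate 2 and WT replicate 2 was narrow. Its ratio was 1.38 (interval 1.04 to 1.82, edgeR adjusted p = 0.148). Cygb encodes cytoglobin, a heme globin of stellate cells and fibroblasts. It was at 41.2, 41.2 and 30.5 CPM in KO and at 27.7, 16 and 22 CPM in WT, with the lowest KO sample just above the highest WT sample. Its ratio of 1.72 was the largest of the quiescent group (interval 1.21 to 2.45, edgeR adjusted p = 0.0741). Colec11 encodes collectin-11, a soluble lectin that can start complement. It was at 53.5, 60.3 and 62.4 CPM in KO and at 46.6, 50.5 and 44.7 CPM in WT, and varied least of the 10 genes within a genotype, by 7.95% in KO and 6.25% in WT (SD as a share of the mean, n = 3). Its ratio was 1.24 (interval 1.04 to 1.49, edgeR adjusted p = 0.128). Colec11 was called with library size only (adjusted p = 0.0277), which called 7.45% of all genes and shifted their median by 0.21, and Cygb was called without WT replicate 1 (log2 fold change 0.996, edgeR adjusted p = 0.0405), where 7.32% of all genes were.

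Hhip encodes a membrane protein that binds hedgehog ligands and keeps them from their receptor, and it went the other way. It was at 0.845, 1.43 and 1.42 CPM in KO, from 20, 37 and 33 counts, and at 2.25, 5.87 and 2.67 CPM in WT, from 43, 101 and 50 counts. All KO samples lay below all WT samples, and WT replicate 2 was far above the other two. Its level in KO was 2.90-fold below that in WT in the fit (interval 1.405 to 5.99), which missed the threshold (edgeR adjusted p = 0.0829). On the log2 scale the difference of -1.54 was -0.99 with WT replicate 2 left out (edgeR adjusted p = 0.165; 6.68% of all genes called).

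Both receptors had KO above WT in every sample. Pdgfra, the alpha receptor for platelet-derived growth factor, was at 18.4, 20.6 and 15.9 CPM in KO and at 9.26, 7.15 and 8.06 CPM in WT. The lowest KO sample was well above the highest WT sample. Pdgfra rose 2.24-fold (interval 1.72 to 2.93, log2 fold change 1.17, SE 0.16, edgeR adjusted p = 0.0118, higher in 3 of 3 KO samples). The call was lost when KO replicate 2 was left out (log2 1.07, edgeR adjusted p = 0.0669; 0.771% of all genes called) and when WT replicate 3 was (log2 1.16, adjusted p = 0.0518; 2.22% called). It held without KO replicate 1, where 2.25% were called. Of the 8767 exon bases of Pdgfra (mm10 chr5:75152292-75198215, plus strand) 456 lie opposite an antisense gene model. Pdgfrb, the beta receptor, is the one usually tied to the growth response of activated stellate cells. It was at 30.8, 27.4 and 21.4 CPM in KO and at 18.3, 9.42 and 16.2 CPM in WT, with WT replicate 2 the lowest. Its ratio was 1.81 (interval 1.19 to 2.75), and it missed the threshold (edgeR adjusted p = 0.0911).

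The 2 activated markers had the largest fitted ratios of KO to WT among the 10 genes and the widest spread between KO samples. Acta2, smooth muscle alpha-actin, was at 10.9, 16.6 and 4.27 CPM in KO and at 4.45, 2.91 and 3.85 CPM in WT. KO replicates 1 and 2 were above all WT samples, and KO replicate 3 was below WT replicate 1. Its ratio was 2.83 (interval 1.32 to 6.10, edgeR adjusted p = 0.1002). Tagln (mm10 chr9:45929619-45936058, minus strand) encodes transgelin, an actin-binding protein of smooth muscle. An antisense gene model lies opposite 877 of its 1595 exon bases, and without strand its reads cannot be told apart from those of Tagln. It was at 32.0, 32.8 and 13.3 CPM in KO and at 8.95, 7.73 and 13.6 CPM in WT. KO replicates 1 and 2 were again high, and KO replicate 3 was just below WT replicate 3. Its ratio was 2.58 (interval 1.39 to 4.79, edgeR adjusted p = 0.0758). Among KO samples the highest value was 3.89 times the lowest for Acta2 and 2.47 times for Tagln, against 1.29 times for Pdgfra. Without KO replicate 3 both were called (edgeR adjusted p = 0.0363 for Acta2 and 0.0355 for Tagln), in a fit that called 1.99% of all genes. Without KO replicate 2 the log2 fold change of Acta2 was 1.02 in place of 1.5 (edgeR adjusted p = 0.275) and that of Tagln 1.17 in place of 1.37 (edgeR adjusted p = 0.221).

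**Figure D2:**
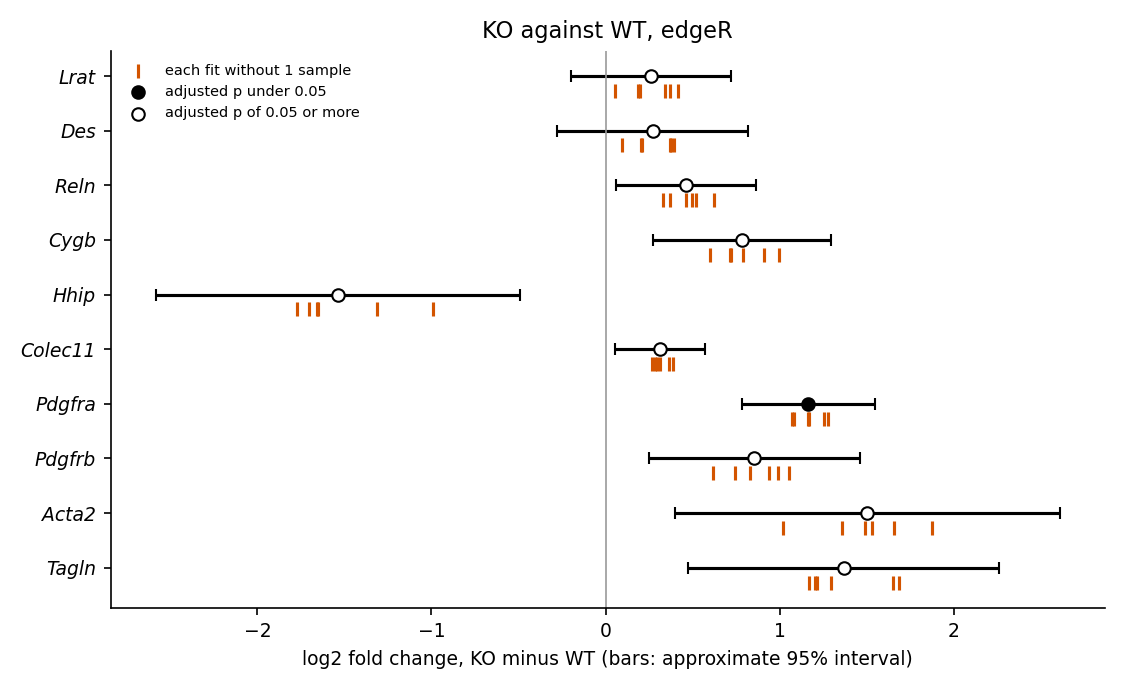
Log2 fold change of KO minus WT (horizontal axis) for the 10 genes, as points with approximate 95% intervals. The filled point has an adjusted p under 0.05, and orange ticks are the 6 fits that each leave out 1 sample. Only Pdgfra is filled, Hhip alone lies left of 0, and the intervals of Acta2 and Tagln are wide.

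The same 7 genes, Lrat, Des, Cygb, Pdgfra, Pdgfrb, Acta2 and Tagln, were lowest in KO replicate 3 among KO samples and lowest in WT replicate 2 among WT samples. Over all genes tested, 31.7% were lowest in KO replicate 3 and 36.2% in WT replicate 2. Reln, Hhip and Colec11 were instead highest in WT replicate 2 among WT samples, as were 38.8% of all genes. KO replicate 2 was the highest KO sample for 6 genes, Des, Cygb, Hhip, Pdgfra, Acta2 and Tagln, against 26.7% of all genes.

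To set activated against quiescent markers within a sample, ratios of CPM were taken in each sample. They are values with no test, and their size depends on the quiescent marker used. Lrat and Des had the smallest fold changes of that group (log2 0.26 and 0.27). Cygb, at 0.78, would give smaller differences between KO and WT, and Hhip, at -1.54, larger ones. The log2 ratio of Acta2 to Lrat was -2.0, -0.87 and -2.76 in KO replicates 1 to 3 and -2.54, -3.14 and -3.15 in WT replicates 1 to 3. The groups overlapped, since KO replicate 3 lay below WT replicate 1. The log2 ratio of Tagln to Lrat was -0.45, 0.12 and -1.12 in KO and -1.53, -1.73 and -1.34 in WT, with no overlap. Against Des, the log2 ratio of Acta2 was 0.43, 1.03 and -0.51 in KO and -0.64, -0.64 and -0.86 in WT. That of Tagln to Des was 1.99, 2.02 and 1.13 in KO and 0.37, 0.77 and 0.96 in WT. All 3 KO samples were above the WT samples in both ratios to Des. Against the mean of the 6 quiescent markers, Acta2 was at -0.89, -0.30 and -2.12 in KO and -1.96, -2.69 and -2.27 in WT. Tagln was at 0.66, 0.68 and -0.48 in KO and -0.96, -1.28 and -0.45 in WT. Both overlapped between groups, with KO replicate 3 below WT replicate 1 for Acta2 and below WT replicate 3 for Tagln. The means of KO and WT differed by 1.07 for Acta2 to Lrat, 1.05 for Tagln to Lrat, 1.03 for Acta2 to Des and 1.01 for Tagln to Des on the log2 scale, close to 2.10-fold, 2.07-fold, 2.05-fold and 2.02-fold. Without KO replicate 2 these differences were 0.57, 0.75, 0.68 and 0.86. The ratio of Acta2 to Lrat moved most. The log2 ratio of Pdgfra to Lrat was -1.24, -0.56 and -0.85 in KO and -1.48, -1.85 and -2.09 in WT, with no overlap and a mean difference of 0.92. The log2 ratio of Hhip to Lrat was -5.69, -4.41 and -4.34 in KO and -3.53, -2.13 and -3.68 in WT, a mean difference of -1.70.

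**Figure D3:**
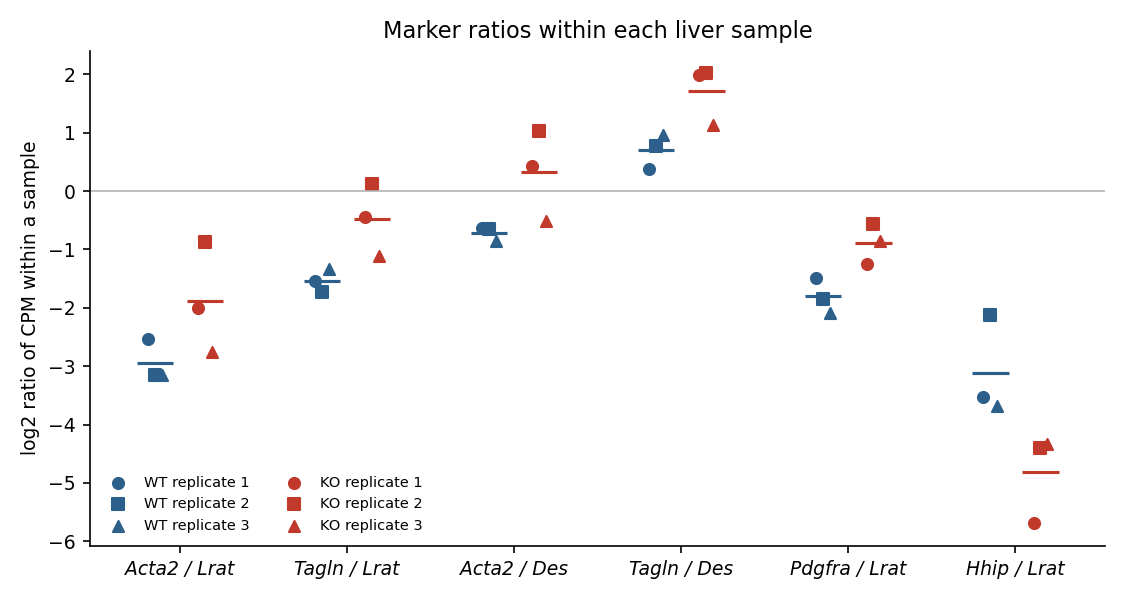
Log2 ratio of the CPM of 2 marker genes within a sample (vertical axis) for 6 pairs of genes, with WT in blue, KO in red, symbols for replicates and bars for group means. KO lies above WT in all samples for Tagln to Lrat, both ratios to Des and Pdgfra to Lrat, below it for Hhip to Lrat, and overlaps it for Acta2 to Lrat.

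Levels were compared between genes per length, as CPM per kilobase of annotated exon (RPKM). In WT the order was Colec11 at 32.8 ± 2.05, Cygb at 9.38 ± 2.51, Tagln at 6.32 ± 1.93, Reln at 5.65 ± 1.18, Lrat at 5.35 ± 0.911, Pdgfrb at 2.67 ± 0.846, Des at 2.03 ± 0.461, Acta2 at 1.83 ± 0.382, Pdgfra at 0.931 ± 0.121 and Hhip at 0.396 ± 0.218 RPKM (SD, n = 3). From Cygb to Lrat each gene's samples overlapped those of the next, as they did from Pdgfrb to Acta2. Colec11 lay above all others without overlap, a gap lay between Lrat and Pdgfrb, and Pdgfra and then Hhip lay lowest, each clear of the gene before it. In KO the order differed for Tagln and Acta2. Tagln at 16.3 ± 6.94 RPKM was level with Cygb at 16.1 ± 2.64 RPKM, and Acta2 at 5.20 ± 3.03 RPKM came above Pdgfrb at 4.84 ± 0.869 and Des at 2.45 ± 0.384 RPKM (SD, n = 3). The samples of each of these neighbours overlapped, except that those of Pdgfrb and Des did not.

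Likeness of pattern was measured as the root mean square difference between 2 genes' log2 CPM over the 6 samples, each centred on its mean, against 11660 other genes with a mean of at least 1 CPM. The gene nearest to Acta2 was Tnc, tenascin C, at 0.176, followed by Tagln at 0.306 and Mmp23 at 0.317. The genes nearest to Tagln were also led by Tnc, at 0.187, then Epha3 at 0.221 and Sh3bp4 at 0.260, with Acta2 at rank 9. Tnc was at 7.02, 8.41 and 3.19 CPM in KO and at 2.46, 1.80 and 2.46 CPM in WT, again with KO replicate 3 the lowest KO sample. It was not called (log2 fold change 1.47, SE 0.38, edgeR adjusted p = 0.0610). Pdgfra ranked 70, Cygb 111 and Pdgfrb 123 in likeness to Acta2, while Lrat ranked 2296 and Hhip 11462. The genes nearest to Lrat were Srprb at 0.0473, Zfp511 at 0.0577 and Calu at 0.0629, and those nearest to Des were Rps6ka4 at 0.0906, Bcl9 at 0.0920 and Pold3 at 0.0939. Among the members Des ranked 1368 in likeness to Lrat and Lrat ranked 967 in likeness to Des. A gene that varies little is near many others, so ranks for Lrat and Des cover small differences.

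Other stellate cell markers went both ways, most with a positive sign. Of 22 tested genes of a list of 23, 3 rose and none fell, beside 3.36% and 3.58% of all genes. By sign 16 were positive and 6 negative, with a median log2 fold change of 0.37. Unadjusted, 11 had a p under 0.05, beside 25.8% of all genes. KO and WT samples did not overlap for 14, beside 33.5%. DESeq2 called 6 higher and 1 lower, beside 15.3%. Prelp and Dcn, both matrix proteoglycans, rose 1.57-fold and 1.66-fold (edgeR adjusted p = 0.0260 and 0.0413). The transcription factor genes Hand2 and Lhx2, which mark stellate cell identity, had log2 differences of 0.76 (SE 0.22) and 0.86 (SE 0.27) that missed the threshold (edgeR adjusted p = 0.0828 and 0.0965), and the matrix gene Adamtsl2 one of 0.77 (adjusted p = 0.0614). Vipr1, a receptor for vasoactive intestinal peptide, had a log2 difference of -0.61 (edgeR adjusted p = 0.0792). The most abundant gene of the list, Steap4, was at 391 CPM in KO and 410 in WT, and its sign turned with library size only and in 3 fits without 1 sample. How much of the Steap4 level came from other liver cells was not tested. With 1 sample left out, 0 of the list were called without any 1 KO sample or WT replicate 3, 4 without WT replicate 1 and 2 without WT replicate 2, and Prelp and Dcn were not called in 4 and 5 of those 6. Where 0 of the list were called, these fits called 0.771% to 2.25% of all genes. Without WT replicates 1 and 2 they called 7.32% and 6.68%.

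In the matrix list of activated cells 8 of 18 tested genes rose, none fell and all 18 were positive, with a median of 1.41. Over all genes, edgeR called 3.36% higher and 3.58% lower. Postn, periostin, rose 2.77-fold and passed without each sample in turn. Col1a1 and Col1a2, the chains of type I collagen, rose 6.98-fold and 4.92-fold, and the crosslinking enzyme Loxl1 3.11-fold (edgeR adjusted p = 0.0289, 0.0314 and 0.0341), and each was called in only 2 of 6 fits that left a sample out. Fn1, fibronectin, the most abundant, was at 1749 against 1671 CPM. How much of the Fn1 level came from other liver cells was not tested. The 8 became 1 without KO replicate 1, KO replicate 2 or WT replicate 3, 2 without KO replicate 3, 10 without WT replicate 1 and 8 without WT replicate 2. In the same order, these fits called 2.25%, 0.771%, 2.22%, 1.99%, 7.32% and 6.68% of all genes. Col1a1 was at 168, 201 and 132 CPM in KO and at 40.5, 7.96 and 23.2 CPM in WT, so that KO replicate 3 was above every WT sample, unlike for Acta2 and Tagln.

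No contractile gene passed the adjusted test with edgeR among the 18 tested of 24 listed. At an unadjusted p under 0.05 there were 7, beside 25.8% of all genes. DESeq2 called 2 higher and 2 lower, beside 15.3% of all genes. Of the 18, 14 were positive and the median was 0.43. Tpm1, a tropomyosin, had a log2 difference of 1.01 (SE 0.30, edgeR adjusted p = 0.0900) and Tagln2, a relative of Tagln, one of 1.26 (SE 0.39, adjusted p = 0.102). Tpm2, another tropomyosin, and Mylk, the myosin light chain kinase, had log2 differences of -0.62 and -0.49 (edgeR adjusted p = 0.0633 and 0.0605). Without WT replicate 1 edgeR called 3 of the list, without WT replicate 2 it called 1, and it called 0 without each of the other 4 samples. Over all genes these fits called 0.771% to 7.32%.

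Over all genes, edgeR called 3.36% higher and 3.58% lower, and the counts that follow stand beside these shares. Around Lrat, 2 of 21 tested genes of retinoid handling rose and none fell, with a median of -0.07. Among them was Bco1, an enzyme that cleaves beta-carotene (2.73-fold higher, edgeR adjusted p = 0.0331). Aldh1a1, which makes retinoic acid, and Cyp26a1, which breaks it down, had log2 differences of -0.80 and -1.16 that missed the threshold (edgeR adjusted p = 0.0900 and 0.104). Around the receptors, 1 of 15 tested genes of PDGF signalling rose, the kinase Src at 2.13-fold (edgeR adjusted p = 0.0465). The ligands Pdgfa, Pdgfb and Pdgfc were at 13, 4.95 and 7.59 CPM in KO and 8.68, 4.12 and 7.19 CPM in WT, and none was called (edgeR adjusted p = 0.122, 0.543 and 0.871). Bco1 and Src were each called in only 2 of 6 fits that left a sample out. Around Hhip, edgeR called none of 9 tested hedgehog genes. There was 1 at an unadjusted p under 0.05, beside 25.8% of all genes, and 1 lower with DESeq2, beside 15.3%. The hedgehog co-receptor Gas1 had a log2 difference of -1.08 (SE 0.27, edgeR adjusted p = 0.0558), and the receptor Ptch1, itself a target of the pathway, one of -0.22 (SE 0.21, adjusted p = 0.554). Around Reln, 1 of 4 tested genes rose, Dab2ip at 1.61-fold (edgeR adjusted p = 0.0211). The reelin receptor Vldlr did not pass (log2 1.02, edgeR adjusted p = 0.231). Around Colec11, 2 of 7 genes of the lectin pathway of complement fell and none rose. They were the lectin Mbl1, 2.56-fold, and the protease Masp2, 1.66-fold (edgeR adjusted p = 0.00490 and 0.0337), while Colec10, the partner of Colec11, had a log2 difference of -0.79 (SE 0.46, adjusted p = 0.324) that was -0.059 without WT replicate 2. Mbl1 passed without each sample, Masp2 in none of the 6 fits without 1 sample and Dab2ip in 2. Of 13 tested genes of TGF-beta signalling, which drives matrix genes in these cells, Tgfb2 rose 4.73-fold from a low level of 0.628 CPM (edgeR adjusted p = 0.0408), and was called in 1 of 6 fits that left a sample out. Tgfb1 had a log2 difference of 0.20 (adjusted p = 0.659).

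Markers of other cells that share these genes were measured beside them. Of 12 smooth muscle and mural genes 6 were tested and edgeR called none (3 at an unadjusted p under 0.05, and 1 higher with DESeq2), with a median of 0.65. Myh11, Cnn1 and other genes of this list are also in the contractile list, so the 2 lists are not separate. Over all genes, 25.8% had an unadjusted p under 0.05 and DESeq2 called 15.3%. The 12 summed to between 33.6 and 49.1 CPM in KO and between 19.2 and 32.5 CPM in WT, without overlap. Myh11, the smooth muscle myosin, had a log2 difference of 1.17 (SE 0.40, edgeR adjusted p = 0.121), and Cnn1, calponin, was below 1 CPM in every sample and not tested. Of 12 portal fibroblast genes 10 were tested and edgeR called none (4 at an unadjusted p under 0.05, and 3 higher with DESeq2), with 9 positive and a median of 1.26. They summed to 47.5 to 95.4 CPM in KO and 19.5 to 45.1 CPM in WT. Eln, elastin, had a log2 difference of 2.29 (SE 0.62, edgeR adjusted p = 0.0714), which was 1.33 without KO replicate 2. Thy1 had one of -1.0 (SE 0.59, edgeR adjusted p = 0.334), which was -0.17 without WT replicate 1. Of 6 mesothelial genes 4 were tested and edgeR called none (2 at an unadjusted p under 0.05, and 2 lower with DESeq2). They summed to 2.62 to 3.02 CPM in KO and 4.76 to 7.48 in WT. The part of smooth muscle, portal fibroblasts and mesothelium in the values of Acta2, Tagln and Pdgfra was not tested.

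**Figure D4:**
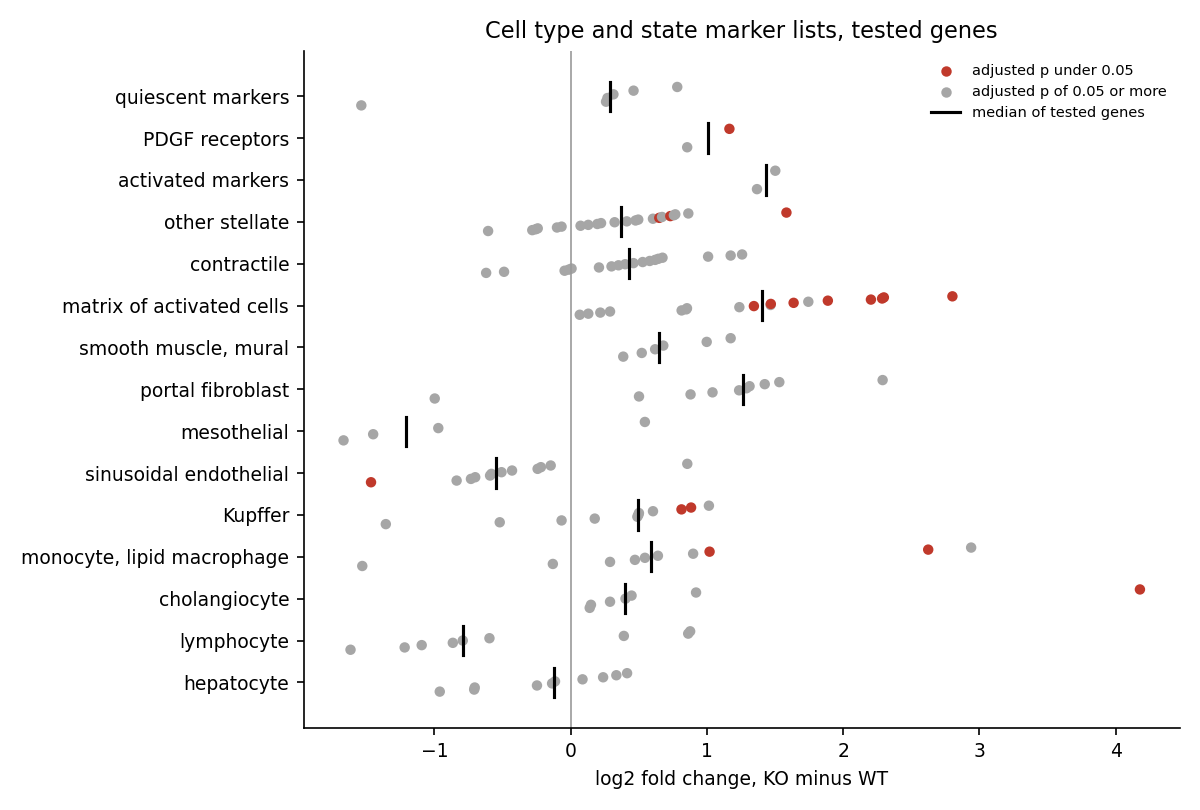
Log2 fold change of KO minus WT (horizontal axis) for each tested gene of 15 marker lists, red where the adjusted p was under 0.05 and grey elsewhere, with black bars for list medians. The activated markers, the matrix list and the portal fibroblast list have medians of 1.43, 1.41 and 1.26. The mesothelial, lymphocyte and sinusoidal endothelial lists have medians of -1.21, -0.79 and -0.54.

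Beyond the mesenchyme, counts stand beside the 3.36% of all genes that edgeR called higher and the 3.58% called lower. Of 12 sinusoidal endothelial genes 1 fell and none rose, with 11 of 12 negative and a median of -0.54. The gene was Dnase1l3, 2.76-fold lower (edgeR adjusted p = 0.0288). Of 11 Kupffer cell genes 2 rose, Clec4f and Vsig4 (1.85-fold and 1.76-fold, edgeR adjusted p = 0.0352 and 0.0463), with a summed level of 2597 to 3146 CPM in KO and 1273 to 2576 CPM in WT. Of the 11, 8 were positive and 3 negative, from -1.36 to 1.01 on the log2 scale with a median of 0.50. DESeq2 called 3 higher and 1 lower, beside 15.3% of all genes. Of 10 monocyte and lipid-associated macrophage genes 2 rose, Cd9 and Trem2 (2.03-fold and 6.17-fold, edgeR adjusted p = 0.0143 and 0.0240). Of these 10, 8 were positive and 2 negative, from -1.53 to 2.94 with a median of 0.59. DESeq2 called 4 of them higher and 0 lower. Leaving out 1 sample gave 0 to 7 Kupffer genes and 0 to 5 of the other macrophage list called higher, the most without WT replicate 1 (7 and 5) and 0 of both without KO replicate 1 or KO replicate 2. The fits without 1 sample called 0.771% to 7.32% of all genes. Of 7 tested cholangiocyte genes 1 rose, Prom1 (18.1-fold, edgeR adjusted p = 0.00183). With edgeR none of 9 tested lymphocyte genes was called (2 at an unadjusted p under 0.05, 0 with DESeq2), and none of 10 hepatocyte genes (3 unadjusted, 3 lower with DESeq2). The shares over all genes were 25.8% unadjusted and 15.3% with DESeq2. In WT replicate 2, where 7 of the 10 stellate and myofibroblast genes were lowest among WT samples, the macrophage list was also lowest, at 297 CPM against 610 and 1165 CPM in WT replicates 3 and 1. The Kupffer, other stellate, contractile, smooth muscle, portal fibroblast and cholangiocyte sums were lowest there too. The hepatocyte sum was highest there, at 167101 CPM against 121268 and 109260 CPM in WT replicates 1 and 3. In KO replicate 3 the endothelial list was lowest, at 275 CPM against 588 and 512 CPM in KO replicates 1 and 2. The other stellate, contractile, smooth muscle and portal fibroblast sums were also lowest in KO replicate 3. The hepatocyte (150300 against 128994 and 127508 CPM), Kupffer, macrophage and cholangiocyte sums were highest in it. The part of these cells in the values of the 10 genes was not tested. Without 1 sample the calls over these 18 lists, 20 genes higher and 3 lower, became 2 higher without KO replicate 1, 2 without KO replicate 2, 4 without KO replicate 3, 34 without WT replicate 1, 19 without WT replicate 2 and 4 without WT replicate 3, with 1 to 3 lower. Prom1 held in all 6 of these fits, Cd9 in 4, Clec4f, Trem2 and Dnase1l3 in 2 and Vsig4 in 1.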

How the data were processed

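RNA was isolated with Trizol from frozen liver and libraries were made with a TruSeq kit, per the labels' protocols. The authors deposited whole-number read counts per gene symbol. STAR 2.5, featureCounts, Subread 1.5.3, edgeR 3.20.8 and mm10 are named in the submitters' processing notes. The sources used here give no annotation, strand setting or handling of multi-mapped reads. Without strand, reads of antisense partners cannot be told apart: by GENCODE M21 exons, Tagln shares 877 of 1595 bases with an antisense gene and 94 with Pcsk7, Pdgfra 456, Reln 246, Des 220, Cygb 201 and Hhip 175.

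Libraries were grouped by genotype and numbered in accession order, which pairs nothing. Nothing says that they came from separate animals, so p-values measure the spread between these samples, which may be technical. No pair agreed within sampling noise (chi-square per degree of freedom 21.5 to 134 within groups). The test was edgeR's quasi-likelihood test (version 4.0.16, R 4.3.3) after filterByExpr with a minimum count of 10 and total of 15 (TMM, robust glmQLFit, two-sided F-test, Benjamini-Hochberg over 12945 genes, threshold 0.05). Each standard error is the fitted log2 difference over the square root of F, and 95% intervals use it. No exact permutation test was run, since its smallest p at this size is 0.1. Alternatives were RLE, upper-quartile and no factors, 2 other filters, DESeq2 1.42.0, limma-voom 3.58.1, no robust dispersion, and leaving out each sample. The script was tested on simulated data.

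Members and lists were chosen with earlier results of these data known. Named genes were the members, Sesn3, up to 4 called genes per list with the smallest p, the most abundant gene of a cell type list and the 3 genes nearest in pattern to Lrat, Des, Acta2 and Tagln, leaving out unnamed models. Cnn1, Ass1, Tpm1, Tpm2, Tagln2, Mylk, Myh11, Gas1, Ptch1, Pdgfa, Pdgfb, Pdgfc, Colec10, Tgfb1, Vldlr, Vipr1, Hand2, Lhx2, Adamtsl2, Aldh1a1, Cyp26a1, Eln and Thy1 were named after their values were seen. A called gene of the lists is counted but not reported here by name. Figures were drawn with matplotlib 3.10.9.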

Additional observations from a re-analysis of the deposited data

How the results depend on the processing

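The direction of all 10 members held in each of the 14 alternatives. DESeq2 called 5 of them higher (Cygb, Pdgfra, Pdgfrb, Acta2 and Tagln) and Hhip lower, 5 and 1, beside 15.3% of all genes, against 1 and 0 in the edgeR fit. Library size only called 2, Pdgfra and Colec11. Leaving out 1 sample gave 0 to 3 higher and 0 lower: 0 without KO replicate 2 or WT replicate 3, 3 without KO replicate 3 (with Acta2 and Tagln) and 2 without WT replicate 1 (with Cygb). Adjusted p over the 14 alternatives ran from 1.03e-06 to 0.0669 for Pdgfra, 0.0152 to 0.275 for Acta2, 0.00536 to 0.221 for Tagln and 0.0151 to 0.205 for Hhip. Over all genes, library size only called 707 higher and 258 lower and DESeq2 921 and 1061, and fits without 1 sample called 48 to 504 and 53 to 475. Over the other lists DESeq2 called 37 higher and 16 lower, and fits without 1 sample 2 to 34 and 1 to 3. The differences of the Acta2 to Lrat, Acta2 to Des, Tagln to Lrat and Tagln to Des ratios stayed positive without 1 sample. They were 0.57 to 1.51, 0.68 to 1.45, 0.75 to 1.37 and 0.85 to 1.30. Against the mean of the 6 quiescent markers the differences were 1.21 for Acta2 and 1.19 for Tagln, with KO and WT samples overlapping. That mean includes Hhip, a gene of few counts and the only 1 of the 6 with a negative fold change (log2 -1.54). Its inclusion makes both differences larger. Among genes near 0 the sign turned for Steap4 (0.15 with library size only, -0.60 to 0.29 when 1 sample was left out) and, in fits leaving out 1 sample, for Fn1 (-0.054 to 0.16), Alb (-0.048 to 0.41), Ass1 (-0.11 to 0.45), Pdgfc (-0.13 to 0.25) and Tgfb1 (-0.041 to 0.46). The cause of these changes was not tested. Allowing 1 mismatch took the members with a CArG box from 0 to 2. No paired analysis was possible because the replicate numbers were given in accession order. Depth limits Hhip most, at 20 to 101 counts a sample, and the widest standard error was that of Acta2 (0.47, against 0.45 for Hhip).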
